A study of Homo sapiens with 22 samples.

Results

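The 59 genes described here lie on human chromosome 18, on both arms, and are followed through 22 RNA-seq libraries of HT1080, an established human fibrosarcoma cell line. They were chosen by name after the fitted values of these data had shown a lower chromosome 18 median in the KDAC6H611A line, so every value that compares this line with another group is a description of the choice and carries no test. All 59 were found in the table of 60675 genes, among 1144 rows placed on chromosome 18, and all 59 passed the filter on low counts in every comparison. The filter kept 230 chromosome 18 genes in the comparison of KDAC6H611A with wild type, of which 124 were protein-coding genes outside the 59.

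KDAC6 and KDAC8 (HDAC6 and HDAC8) are lysine deacetylases, enzymes that remove acetyl groups from lysine side chains. KDAC6 has tandem catalytic domains and is best known for acting on tubulin in the cytoplasm. The groups were unmodified, untreated HT1080 (WT, n = 4); KDAC6H216A, with the first KDAC6 domain inactivated (n = 4); KDAC6H611A, with the second inactivated (n = 4); KDAC8H143A, with KDAC8 inactivated (n = 4); WT treated for 2 days with 1 µM Tubastatin A, a KDAC6 inhibitor (n = 3); and WT treated for 2 days with 5 µM PCI-34051, a KDAC8 inhibitor (n = 3). The substitutions were made by Cas9 cutting with a repair template, and edited lines were grown from single colonies. KDAC6H216A is a pool of 3 such lines, and the other lines are not described as pools. The files hold RNA only, so the substitution cannot be told apart from any other difference between the KDAC6H611A colony and the cells it came from, and DNA copy number is not among the measurements.

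Chromosome 18 is a small, gene-poor chromosome. It carries SMAD4, the shared partner of all receptor-activated SMADs in TGF-beta and BMP signalling, together with SMAD2, a signal-carrying SMAD, and SMAD7, an inhibitor that the pathway itself induces. It also carries BCL2, which blocks mitochondrial cell death, and a cluster of desmosomal cadherin genes. Neighbours on the chromosome otherwise have little function in common, and the members range from splicing and spindle factors to enzymes of lipid handling.

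Library totals ran from 5248953 to 8998474 counts in WT, 6837390 to 11737835 in KDAC6H216A, 7324519 to 12752463 in KDAC6H611A, 11010719 to 17170473 in KDAC8H143A, 28394225 to 29862665 with Tubastatin A and 24315766 to 28676518 with PCI-34051. The libraries also differed in the share of counts on the 2 mitochondrial ribosomal RNAs: 20.8 to 23.9% in WT, but at most 0.0259% in every KDAC8H143A and inhibitor library. Replicate 4 of KDAC6H611A (0.173%, against 21.0 to 38.0% in the other 3) and replicate 1 of KDAC6H216A (0.195%, against 13.1 to 15.1%) stood apart within their groups. With mitochondrial genes left out of the counts the member median in KDAC6H611A against WT was -0.96, beside -0.95 with them. Values without the libraries that stood apart are given for some of the results. The mesenchymal markers checked (VIM, FN1, CD44, LGALS1, TIMP1 and SPARC) were present in every library at 26.9 to 4681 CPM (counts scaled to library size, on a scale shared by the 22 libraries). Of 6 epithelial markers 5 stayed under 1 CPM throughout, with KRT14 at 0, as did the 4 leukocyte and 3 muscle markers; the epithelial gene CLDN4 reached 9.47 CPM. The 3 endothelial markers summed to 0.631 to 0.874 CPM in WT, 0.840 to 1.98 CPM in KDAC6H611A and 1.14 to 3.70 CPM in KDAC8H143A, where CDH5 reached 1.92 CPM. Their part in the KDAC6H611A and KDAC8H143A values was not tested. In bulk RNA, fewer cells with a transcript and less transcript per cell cannot be told apart.

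In KDAC6H611A the 59 genes sat at a median log2 fold change of -0.95 against WT, which is 51.7% of the WT level, while the median of all 14725 genes tested was 0.03. Of the 59, 58 had a value below 0 and 40 passed an adjusted p of 0.01 (edgeR quasi-likelihood), each of them lower. Over all genes tested, 12.3% passed, 6.24% lower and 6.08% higher, and nothing is read from the contrast because these values chose the genes. For 47 of the 59 the highest KDAC6H611A library lay under the lowest WT library, against 13.7% of all genes tested. The 124 other protein-coding genes of chromosome 18 had a median of -0.75. Summed over the whole chromosome, chromosome 18 gave 0.672 ± 0.0136% of non-mitochondrial counts in KDAC6H611A (SD, n = 4) and 1.16 ± 0.0287% in WT (SD, n = 4). The 4 KDAC6H611A libraries, replicate 4 included, lay between 0.657 and 0.689%, under every other library (1.03 to 1.22%).

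**Figure D1:**
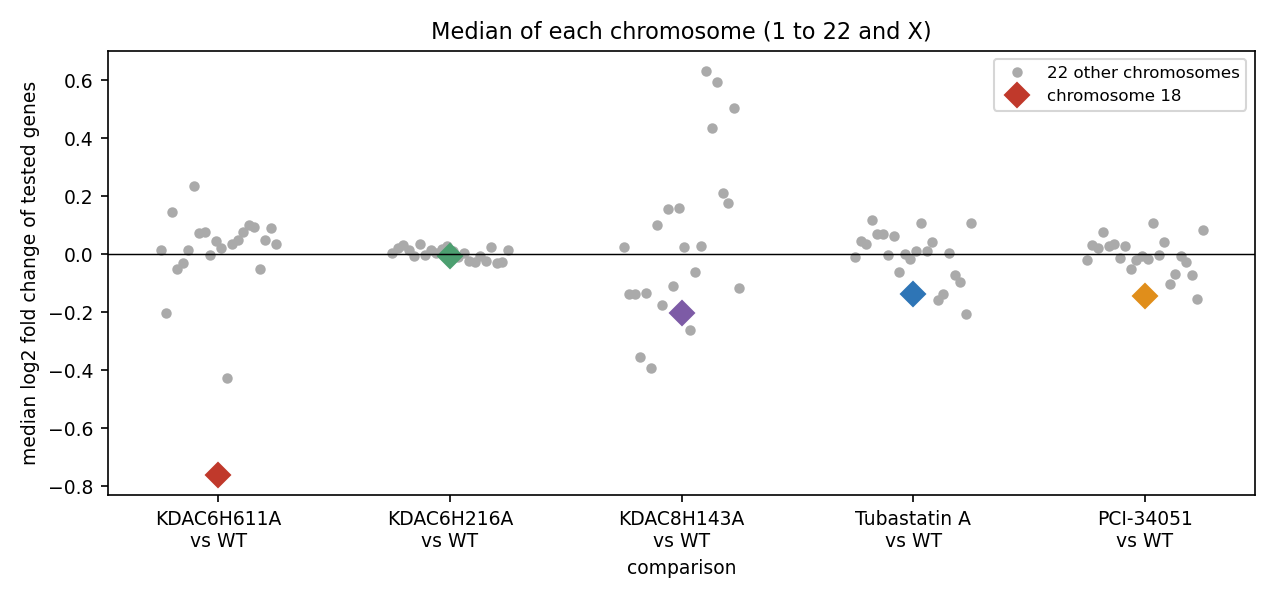
Median log2 fold change of the tested genes of each chromosome (vertical axis) in 5 comparisons with WT (horizontal axis); grey points are the 22 other chromosomes and diamonds are chromosome 18. Chromosome 18 sits at -0.76 in KDAC6H611A, under the next lowest chromosome at -0.43, and inside the range of the other chromosomes in the remaining comparisons.

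Counting all its tested genes, chromosome 18 had the lowest median of 23 chromosomes in KDAC6H611A at -0.76. The next lowest was chromosome 13 at -0.43, and the highest was chromosome 7 at 0.24. The other groups did not share that place: chromosome 18 was at rank 9 from the bottom in KDAC6H216A at -0.01, within a range of -0.03 to 0.04 for the other chromosomes. It was at rank 4 in KDAC8H143A at -0.20, where chromosome 6 was at -0.39 and chromosome 16 at 0.63. With Tubastatin A and PCI-34051 it was at -0.14 in both, at rank 4 and rank 2. Chromosome 22 was the lowest there, at -0.21 and -0.15.

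Along the chromosome the lower values in KDAC6H611A were not even. The 8 members nearest the short-arm end, from USP14 (0.16 Mb) to MYL12B (3.26 Mb), had values from -0.75 to -1.42. The next 14 in order, from TGIF1 at 3.41 Mb to GATA6 at 22.17 Mb on both sides of the centromere, all lay above -0.5, with a median of -0.31 (80.4% of WT). They are TGIF1, TWSG1, PPP4R1, RAB31, VAPA, NAPG, AFG3L2, PTPN2, SEH1L, ROCK1, SNRPD1, ABHD3, MIB1 and GATA6. The 45 members outside this segment had a median of -1.06 (48.0% of WT). This segment was drawn after its values were seen, as the longest run of neighbouring members above -0.5, so its difference from the rest is shown without a test.

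**Figure D2:**
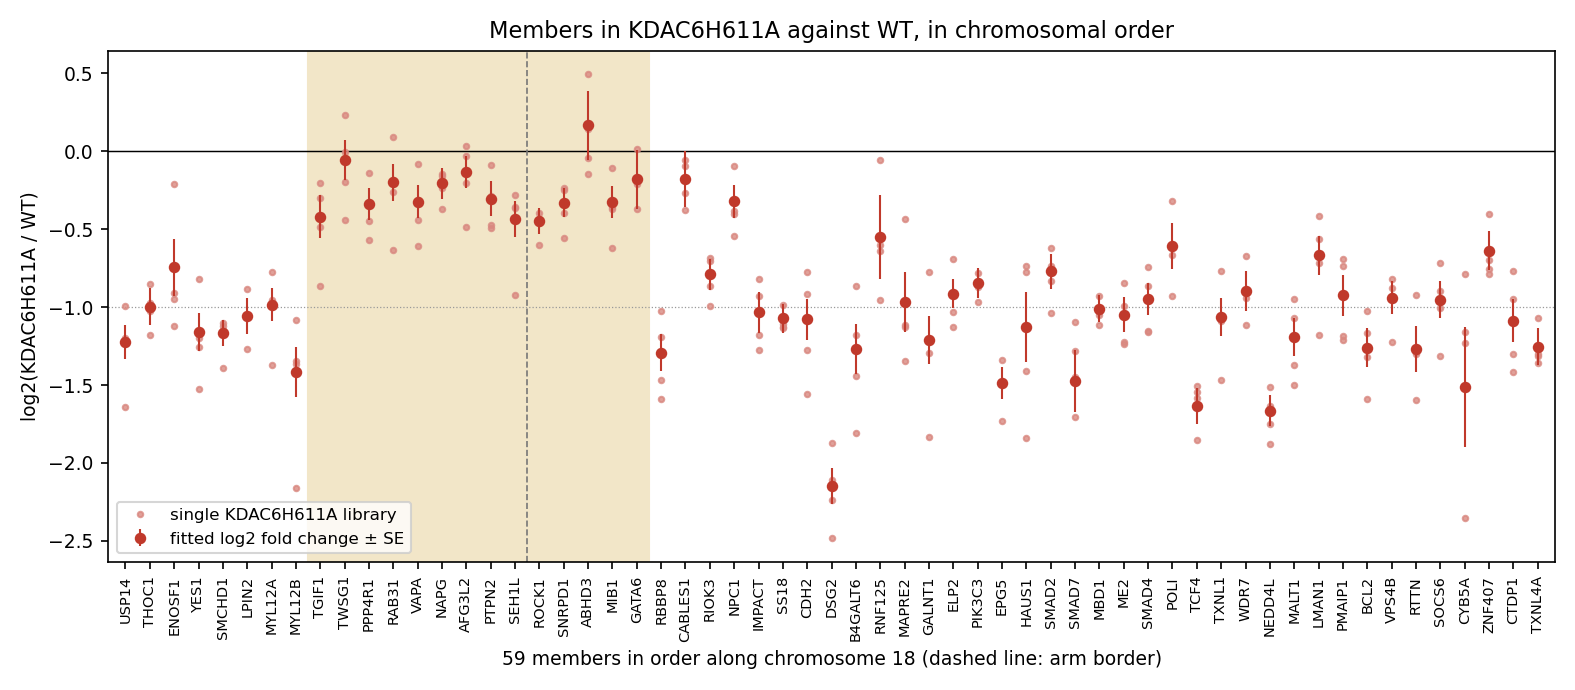
Fitted log2 fold change of each of the 59 members in KDAC6H611A against WT (large points, bars are SE) and the 4 single libraries against the WT mean (small points), in order along chromosome 18; shading marks the 14-gene segment and the dotted line a value of -1. Members in the shaded segment lie between -0.45 and 0.17, and most others lie near or under -1.

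The long-arm edge of the segment fell between neighbouring members. GATA6, which encodes an endodermal and cardiac transcription factor, gave 5.79, 9.36, 7.96 and 9.84 CPM in the 4 WT libraries and 8.31, 7.06, 6.25 and 7.22 CPM in KDAC6H611A, and the groups overlapped. RBBP8 at 22.80 Mb, whose product CtIP starts DNA end resection, had a log2 fold change of -1.29 ± 0.12 (SE), with every KDAC6H611A library under every WT library. Beyond it the values stayed mixed over a short stretch, with CABLES1 at -0.18, RIOK3 at -0.79 and NPC1 at -0.32. From IMPACT (24.43 Mb) to TXNL4A (79.97 Mb) the 33 remaining members ran from -0.55 in RNF125 to -2.15 in DSG2. Over all tested genes of the chromosome in windows of 10 Mb, the window from 10 to 20 Mb had a median of -0.21 and the 8 others between -0.54 and -1.05. On the short arm the protein-coding genes that are not members did not share the edge at TGIF1: the 10 between TGIF1 and TWSG1 had a median of -0.57, with RAB12 at -1.27 and ZBTB14 at -0.90. These 10 were mixed, from EPB41L3 at -13.46 to L3MBTL4 at 3.12, with NDUFV2 at -0.19 and LAMA1 at 0.12. Of them 8 lay below 0 and 5 below -0.5. The 18 others from TWSG1 to GATA6 had a median of -0.25, and the 96 outside the span -0.91.

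The segment was drawn from the KDAC6H611A and WT libraries themselves, so a split in each KDAC6H611A library is largely fixed by that choice. Values per library are given as a description. The median of the 14 segment members was -0.30, -0.52, -0.12 and -0.28 in KDAC6H611A replicates 1 to 4 (log2 of CPM plus 0.5, against the WT mean). That of the 45 other members was -1.05, -1.27, -0.88 and -1.13 in the same order. In WT, where the mean is the reference, the 2 medians lay within -0.05 and 0.07. Set against KDAC6H216A in place of WT, the fitted medians were -0.38 inside and -1.17 outside, and that comparison shares the KDAC6H611A libraries. In KDAC6H216A itself they were 0.14 and 0.04, and in KDAC8H143A -0.45 and -0.58.

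**Figure D3:**
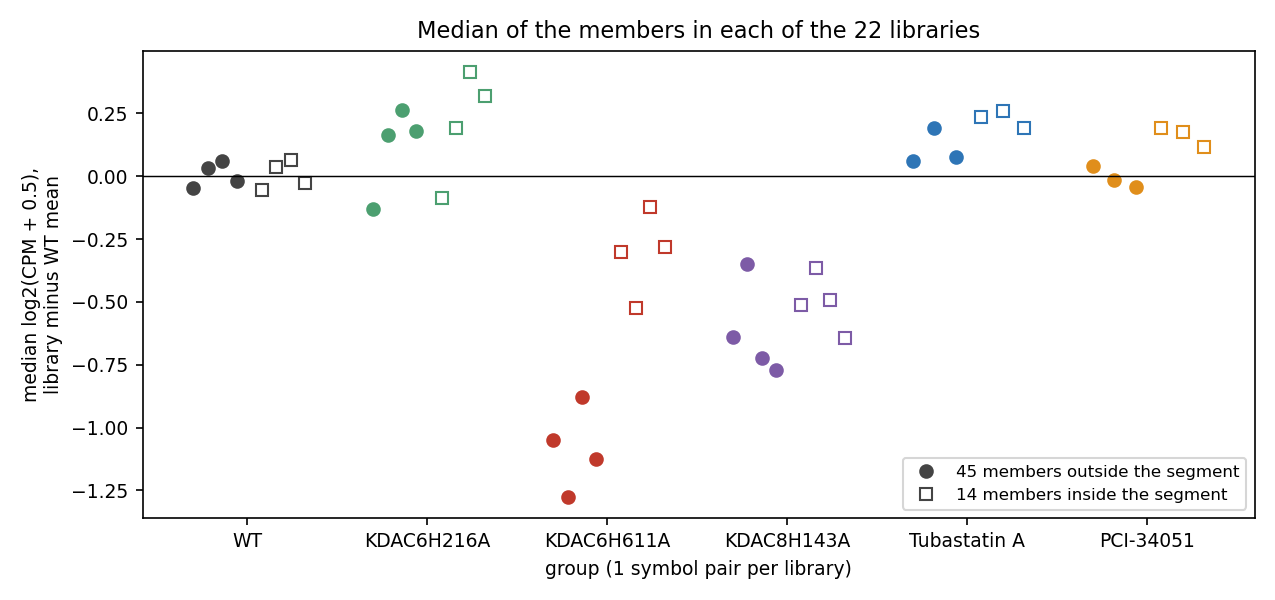
Median over the members of log2(CPM + 0.5) minus the log2 of the WT mean (vertical axis) in each of the 22 libraries by group (horizontal axis); filled circles are the 45 members outside the segment and open squares the 14 inside it. The 4 KDAC6H611A libraries have circles from -1.27 to -0.88 and squares from -0.52 to -0.12, while in the other groups the circles and squares of a library lie closer together.

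The segment members did not stand apart in other properties. Their median WT level was 62.9 CPM against 51.9 CPM for the other 45, and their transcripts had a median GC content of 40.1% against 40.3%. Median exon length was 7627 and 7375 bases. Over the 59 members the KDAC6H611A value had a Pearson r of -0.05 with GC content, -0.16 with log2 exon length and -0.17 with log2 WT level, given as a description over genes that share libraries. As a whole the members had lower GC content than the tested protein-coding genes (median 40.3% against 47.5%) and a higher WT level (52.5 against 25.5 CPM). Per kilobase of exon, the members spanned a wide range in WT, from 113 CPM per kilobase in MYL12B to 0.572 in CYB5A.

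At the low end of the 59 stood DSG2, a desmosomal cadherin that joins cells to one another. WT libraries held 82.1, 96.7, 103 and 92.1 CPM, those of KDAC6H611A 21.2, 16.3, 25.2 and 19.4 CPM, and the fitted value was -2.15 ± 0.11 (SE). The highest KDAC6H611A library lay far under the lowest WT library. NEDD4L, a ubiquitin ligase that removes membrane channels and SMADs, gave 438, 466, 460 and 444 CPM in WT and 145, 123, 158 and 134 CPM in KDAC6H611A (-1.66 ± 0.10, SE). TCF4, a transcription factor of the E-protein family, gave 27.1, 28.2, 29.5 and 24.9 CPM against 8.84, 7.22, 9.33 and 9.08 CPM (-1.64 ± 0.12, SE). In both genes the groups were far apart. CYB5A, the electron carrier cytochrome b5, gave 5.17, 5.87, 3.66 and 6.51 CPM against 1.98, 2.86, 0.634 and 2.10 CPM (-1.51 ± 0.38, SE), with no overlap but a wide error at this low level.

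At the high end stood ABHD3, a phospholipid-cleaving hydrolase, at 5.79, 4.74, 5.18 and 5.65 CPM in WT and 5.94, 7.73, 5.16 and 4.77 CPM in KDAC6H611A (0.17 ± 0.22, SE). It was the only member with a value above 0, and the groups overlapped. TWSG1, a secreted BMP-binding protein, followed at -0.06 ± 0.13 (SE), with 31.2, 36.7, 38.8 and 30.3 CPM in WT and 29.8, 25.03, 40.2 and 34.1 CPM in KDAC6H611A. AFG3L2, a subunit of the mitochondrial m-AAA protease, was at -0.13 ± 0.10 (SE) and CABLES1, a binding partner of cyclin-dependent kinases, at -0.18 ± 0.18 (SE).

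The sequence before the start site is shown for the lowest and the highest member in KDAC6H611A, DSG2 and ABHD3, and for GATA6 and SMAD7, the members that rose most with the inhibitors (below). Each is 250 bases before the RefSeq start on build GRCh38.p14, 5′ to 3′ on the gene's strand, with every CG dinucleotide in capitals. They span chr18:31497927-31498176 (plus strand, DSG2), chr18:21704775-21705024 (minus, ABHD3), chr18:22169339-22169588 (plus, GATA6) and chr18:48950966-48951215 (minus, SMAD7).
DSG2: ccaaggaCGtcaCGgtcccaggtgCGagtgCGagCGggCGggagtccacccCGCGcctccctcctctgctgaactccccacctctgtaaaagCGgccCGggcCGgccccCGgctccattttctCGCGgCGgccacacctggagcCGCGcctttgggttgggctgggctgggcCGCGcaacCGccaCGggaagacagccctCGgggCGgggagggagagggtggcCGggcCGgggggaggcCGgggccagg
ABHD3: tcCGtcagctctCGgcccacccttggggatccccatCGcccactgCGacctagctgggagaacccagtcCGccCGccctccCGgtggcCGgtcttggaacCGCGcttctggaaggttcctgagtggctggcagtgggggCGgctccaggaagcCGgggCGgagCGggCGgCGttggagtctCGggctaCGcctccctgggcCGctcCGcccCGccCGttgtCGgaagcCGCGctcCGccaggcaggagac
GATA6: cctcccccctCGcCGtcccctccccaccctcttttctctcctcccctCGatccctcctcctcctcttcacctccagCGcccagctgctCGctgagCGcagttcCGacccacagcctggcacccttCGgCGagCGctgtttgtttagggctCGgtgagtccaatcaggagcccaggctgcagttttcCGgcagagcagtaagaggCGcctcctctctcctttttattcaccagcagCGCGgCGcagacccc
SMAD7: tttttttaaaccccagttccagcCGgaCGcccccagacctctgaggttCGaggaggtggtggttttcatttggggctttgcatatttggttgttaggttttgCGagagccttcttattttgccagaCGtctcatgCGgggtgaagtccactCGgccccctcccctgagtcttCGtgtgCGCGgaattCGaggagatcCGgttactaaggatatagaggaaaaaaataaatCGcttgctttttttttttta
DSG2 and ABHD3, at opposite ends of the KDAC6H611A values, both held 26 CG dinucleotides, and GATA6 and SMAD7 held 16 and 13. The motif searched was CG alone, which reads the same on both strands; 93.9% of the 35116 promoters in the RefSeq table hold it at least 1 time in this window. Of the 59 members 56 had an entry, and their median was 26 (the richest entry of each gene), against 23 over the 9486 protein-coding genes tested that had an entry. It was 27 in the segment and 26 outside it.

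By role, the KDAC6H611A values were lower in every group of members, as their choice fixes. The 5 TGF-beta and BMP genes had a median of -0.77, with SMAD2 at -0.77 ± 0.11, SMAD4 at -0.95 ± 0.10 and SMAD7 at -1.47 ± 0.20 (SE). SMAD4 gave 79.6, 94.4, 90.4 and 88.4 CPM in WT and 48.1, 39.3, 52.6 and 39.2 CPM in KDAC6H611A. SMAD7 gave 8.07, 9.99, 8.84 and 10.3 CPM against 2.51, 3.53, 3.08 and 4.08 CPM. No library of one group reached into the other for either gene. TGIF1, a repressor of SMAD-driven transcription inside the segment, was at -0.42 ± 0.14 (SE), from 25.1 to 27.7 CPM in WT and 14.1 to 22.6 CPM in KDAC6H611A.

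Among the 7 genes of cell death, kinase and cytokine signalling, BCL2 was at -1.26 ± 0.13 and PMAIP1 (NOXA), which opposes BCL2 relatives, at -0.92 ± 0.13 (SE). BCL2 gave 35.2, 36.1, 36.4 and 34.9 CPM in WT and 17.3, 13.9, 15.6 and 11.5 CPM in KDAC6H611A, so genes that block and promote death were both lower. The 6 adhesion and cytoskeleton genes had a median of -1.03. Besides DSG2 they include CDH2 (N-cadherin, -1.08 ± 0.13), the myosin light chains MYL12A (-0.98 ± 0.11) and MYL12B (-1.42 ± 0.16), and ROCK1, the kinase that drives myosin contraction (-0.45 ± 0.08, SE). CDH2 gave 70.3, 78.5, 83.3 and 72.7 CPM in WT and 31.3, 25.5, 44.3 and 40.2 CPM in KDAC6H611A, and ROCK1 gave 98.7, 101, 105 and 106 CPM against 77.8, 67.5, 75.7 and 74.4 CPM. Both were apart from WT in all 4 libraries, by a smaller step in ROCK1, a segment member. MYL12A and MYL12B are near-identical neighbours, so the division of reads between them is uncertain. The 12 genes of RNA, chromatin and transcription had a median of -1.004, with SMCHD1, a silencer of the inactive X chromosome, at -1.17 ± 0.09 (SE). The 9 membrane traffic and autophagy genes had a median of -0.67, the 9 of metabolism and redox -1.06, the 4 of DNA repair and cell division -1.20, the 3 of translation control and phosphatases -0.79 and the 4 of the ubiquitin pathway -0.89.

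Many members are subunits of complexes whose other parts are encoded elsewhere. A list of 69 partners in 18 complexes, none on chromosome 18, was compared with the members in KDAC6H611A against WT. All 69 were tested, and their median was -0.05. Of these 3 fell, MYH10, SMAD1 and SMARCD1, and 2 rose, RAD50 and JUP, against 6.24% lower and 6.08% higher over all genes. In 16 of the 18 complexes the member lay under every partner. The choice of low members and of partners off the chromosome largely fixes that count, so it is a description. AFG3L2, LMAN1, MALT1 and PPP4R1 each had only 1 partner in the list. The U5 snRNP gene TXNL4A was at -1.25 and its 5 partners between -0.14 and 0.17. The THO subunit THOC1 was at -0.997 and its 5 partners between -0.23 and 0.19. HAUS1 of the augmin complex was at -1.13 and its 7 partners between -0.48 and 0.29. The exceptions were SNRPD1 of the segment (-0.33), which lay within the range of its Sm-ring partners (-0.59 to 0.01), and MYL12A, whose partner MYH10, a non-muscle myosin heavy chain on chromosome 17, was at -3.66. JUP, the catenin that binds cadherins such as DSG2, stood at 1.69.

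A few chromosome 18 genes outside the 59 went far past the shift of the members. EPB41L3, an adaptor between the membrane and the actin skeleton, gave 178 to 194 CPM in WT and no count in any KDAC6H611A library, at least 370-fold lower with a floor of 3 counts per library. SERPINB5 (maspin) gave 16.1 to 17.8 CPM in WT and again no count, at least 33.3-fold lower. A count of 0 covers counting error only, and both genes were present in all other libraries, EPB41L3 at 97.9 CPM or more. PIEZO2, a mechanically gated channel, gave 2.18 ± 0.653 CPM in WT (SD, n = 4) and at most 2 counts in a KDAC6H611A library, and it was as scarce in KDAC8H143A at 0.0420 ± 0.0496 CPM (SD, n = 4). These genes were the lowest 3 of the chromosome with at least 1 CPM in WT. Others on the chromosome went the opposite way. DCC, a netrin receptor, gave 0.124 to 0.207 CPM in WT and 4.89 to 5.67 CPM in KDAC6H611A, and L3MBTL4 rose by 3.12 ± 0.50 (SE) on the log2 scale. Both were picked after their values were seen. EPB41L3, PIEZO2 and L3MBTL4 lie within the span of the segment.

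The remaining comparisons use libraries that did not choose the members, though those with WT share the 4 WT libraries, so their values stand side by side without a correlation between them. In KDAC6H216A no member passed the threshold (edgeR; 10 had an unadjusted p under 0.05, and DESeq2 called 2), against 0.834% of the 14500 genes tested. Their median was 0.06, from -1.06 to 0.56. The lowest was ENOSF1, a mitochondrial enzyme gene, at 40.8, 20.3, 20.6 and 21.1 CPM against 47.4, 49.1, 52.5 and 54.9 CPM in WT (adjusted p = 0.0655 by edgeR). The first of these is replicate 1, which has the low mitochondrial share. Without that library 15 members passed, 3 lower and 12 higher, against 13.8% lower and 12.2% higher over 14638 genes, with ENOSF1 at -1.44 (adjusted p = 1.29e-10 by edgeR) and CDH2 at 0.65 (adjusted p = 1.45e-07 by edgeR). ENOSF1 shares 10.8% of its exon bases with genes on the opposite strand, TYMS among them, and strand use in the counting is not given in the sources used here.

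In KDAC8H143A 35 members fell and 7 rose by edgeR, against 26.9% lower and 31.6% higher over 16101 genes. The member median was -0.57. The KDAC8H143A libraries are also deeper than those of WT and nearly free of mitochondrial ribosomal RNA. The line therefore cannot be told apart from library preparation in this comparison. The split depended on the processing. After a correction for GC content and length together it was 13 lower and 13 higher, with a median of -0.05. With scaling by total count alone it was 20 and 9. Shares over all genes under these settings are not given here, so these splits have no background beside them. The part of base composition, the line or library preparation in this was not tested. Across the 59 genes the KDAC8H143A value had a Pearson r of 0.64 and a Spearman rho of 0.52 with GC content. The correction turned the sign of 9 called members, among them RBBP8, IMPACT and PIK3C3. The largest falls were in HAUS1, a spindle microtubule factor, at -1.97 ± 0.20 (adjusted p = 8.68e-06), the kinase YES1 at -1.57 ± 0.12 (adjusted p = 1.09e-06) and the chromatin remodelling subunit SS18 at -1.53 ± 0.19 (SE, adjusted p = 2.61e-05, all by edgeR). All 3 stayed lower past the threshold after the correction. HAUS1 gave 4.59, 4.70, 2.92 and 5.14 CPM against 13.0, 21.5, 17.0 and 18.5 CPM in WT, without overlap.

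Among the members that rose in KDAC8H143A, CABLES1 gave 12.02, 12.6, 12.4 and 17.1 CPM against 5.30 to 6.24 CPM in WT (log2 fold change 1.27 ± 0.17, SE, adjusted p = 4.51e-05 by edgeR). ENOSF1 gave 105 to 135 CPM against 47.4 to 54.9 CPM (1.26 ± 0.11, adjusted p = 3.11e-06 by edgeR), opposite to its value in KDAC6H216A. SMAD7 gave 18.3, 13.3, 19.7 and 23.1 CPM against 8.07 to 10.3 CPM (1.04 ± 0.18, adjusted p = 0.000303 by edgeR). These 3 stayed past the threshold after the correction, CABLES1 at 0.67, ENOSF1 at 1.26 and SMAD7 at 0.49. Several members that were low in KDAC6H611A were low here too: TCF4 gave 13.0, 14.4, 11.5 and 10.6 CPM (-1.09 ± 0.13, adjusted p = 1.66e-05 by edgeR) and DSG2 32.9, 61.9, 49.0 and 24.6 CPM (-1.10 ± 0.22, adjusted p = 0.000964 by edgeR). TWSG1, close to WT in KDAC6H611A, fell here by 1.23 on the log2 scale, to 10.4, 20.6, 16.5 and 8.41 CPM (SE 0.23, adjusted p = 0.000544 by edgeR). After the GC and length correction TCF4 stayed past the threshold at -0.51, while DSG2 (-0.55, adjusted p = 0.0167) and TWSG1 (-0.19, adjusted p = 0.33, both by edgeR) did not. RAB31, a vesicle GTPase of the segment, gave 34.6, 48.4, 42.1 and 42.6 CPM in KDAC8H143A against 104 to 124 CPM in WT (-1.40 ± 0.11, SE, adjusted p = 1.71e-06 by edgeR) and stayed lower after the correction at -0.86. MYL12A gave 47.6, 60.3, 49.0 and 50.1 CPM against 130 to 151 CPM (-1.37 ± 0.10, adjusted p = 1.13e-06 by edgeR) and stayed lower at -0.78. SMAD4 gave 57.2, 74.95, 61.4 and 55.2 CPM, and its value moved from -0.45 to -0.02 with the correction, which ended the call.

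**Figure D4:**
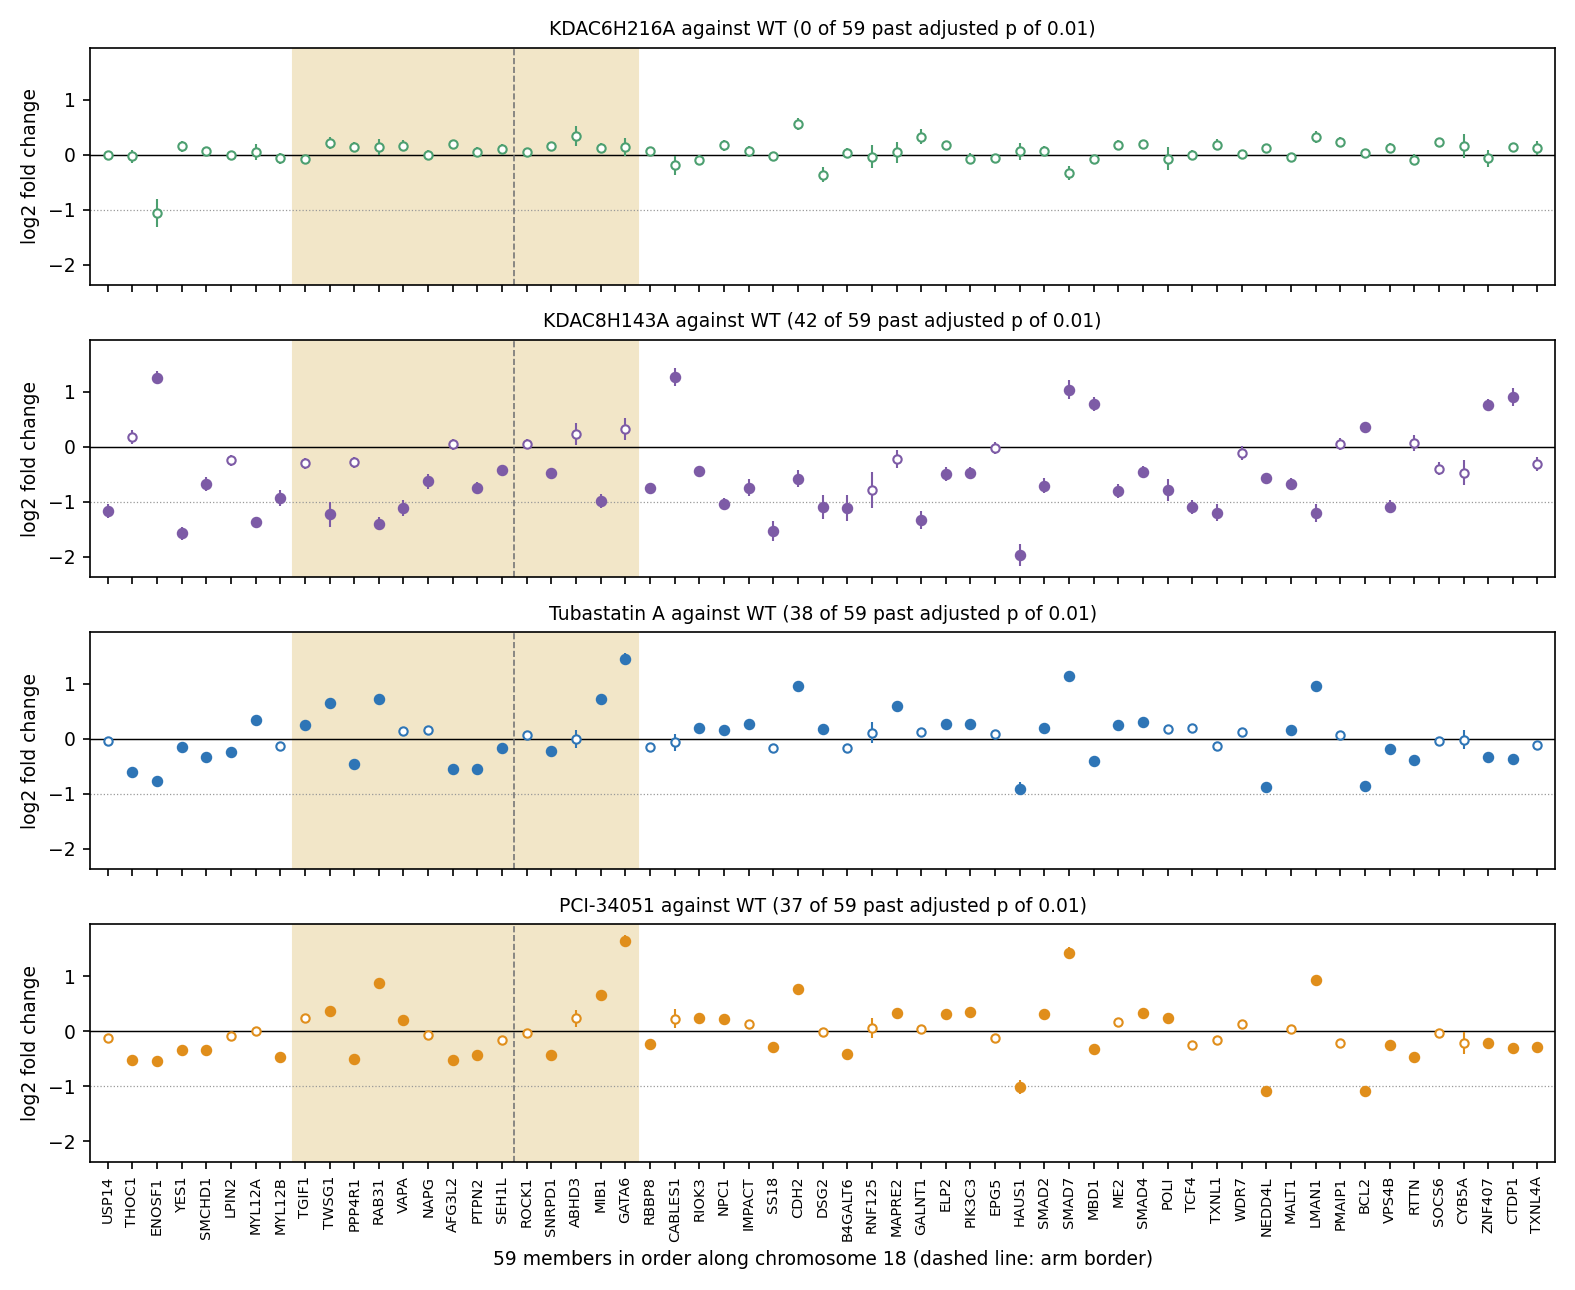
Log2 fold change against WT (vertical axes, bars are SE) of the 59 members in order along chromosome 18 for KDAC6H216A, KDAC8H143A, Tubastatin A and PCI-34051; filled points passed an adjusted p of 0.01 and shading marks the segment drawn in KDAC6H611A. The segment and outside medians are 0.14 and 0.04, -0.45 and -0.58, 0.10 and -0.01, and 0.08 and -0.12 from top to bottom.

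With Tubastatin A 18 members fell and 20 rose by edgeR, against 28.6% lower and 29.3% higher over 15246 genes, and the median was 0.06. With PCI-34051 21 fell and 16 rose, against 25.6% and 25.5% over 15346 genes, with a median of -0.06. Scaling mattered for the direction of small values: by total count the splits were 6 lower and 38 higher and 3 and 34, and after the GC and length correction 24 and 12 and 28 and 11. The shares over all genes under these settings are not given here, so nothing is read from these splits about the members. Total-count scaling moved the median of all genes by 0.35 and 0.38, by 0.36 in KDAC8H143A and by 0.17 in KDAC6H216A. The treated libraries are also deeper than WT and nearly free of mitochondrial ribosomal RNA, and treatment cannot be told apart from library preparation in these comparisons with WT.

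The members with the largest changes were shared by both inhibitors. GATA6 rose from 5.79 to 9.84 CPM in WT to 25.5, 24.6 and 24.7 CPM with Tubastatin A (1.45 ± 0.10, SE, adjusted p = 3.63e-10 by edgeR) and to 29.9, 27.4 and 26.6 CPM with PCI-34051 (1.63 ± 0.11, adjusted p = 1.17e-09 by edgeR). SMAD7 rose to 23.5, 21.0 and 22.5 CPM (1.14 ± 0.10, adjusted p = 3.99e-09 by edgeR) and to 28.8, 26.6 and 25.5 CPM (1.43 ± 0.10, adjusted p = 1.03e-09 by edgeR). Both genes were above every WT library in all 6 treated libraries. GATA6 shares 10.9% of its exon bases with antisense genes, so part of its count may belong to them. LMAN1, a cargo receptor of the early secretory pathway, rose by 0.97 ± 0.05 and 0.92 ± 0.06 (SE, adjusted p = 1.38e-12 and 2.43e-10 by edgeR).

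CDH2 rose from 70.3 to 83.3 CPM in WT to 168, 157 and 157 CPM with Tubastatin A (0.96 ± 0.05, SE, adjusted p = 1.12e-11 by edgeR) and to 137, 149 and 135 CPM with PCI-34051 (0.78 ± 0.05, adjusted p = 1.76e-09 by edgeR). RAB31, which fell in KDAC8H143A, rose by 0.73 and 0.87 (adjusted p = 5.08e-10 and 1.89e-09 by edgeR). Of the 5 TGF-beta and BMP members, all 5 rose with Tubastatin A and 4 with PCI-34051, where TGIF1 did not pass, against 29.3% and 25.5% called higher over all genes. The TGIF1 call with Tubastatin A held in 6 of 10 other settings and in 5 of 7 fits with a library left out. SMAD4 gave 116, 119 and 121 CPM and 115, 120 and 123 CPM, above the WT range of 79.6 to 94.4 CPM, with values of 0.31 and 0.33 (adjusted p = 1.67e-05 and 2.8e-05 by edgeR). These rises kept their sign and their call for CDH2, RAB31, LMAN1 and SMAD4 with total-count scaling and with the correction. Over all 10 other settings CDH2, RAB31 and LMAN1 kept the call in each with both inhibitors. SMAD4 kept it in 10 with PCI-34051 and in 8 with Tubastatin A.

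The largest falls were again the same 3 genes with either inhibitor. BCL2 fell to 21.9, 21.1 and 20.7 CPM with Tubastatin A (-0.86 ± 0.06, SE, adjusted p = 6.86e-10 by edgeR) and to 17.9, 19.5 and 16.1 CPM with PCI-34051 (-1.09 ± 0.08, adjusted p = 1.26e-09 by edgeR). NEDD4L fell to 261, 273 and 267 CPM (-0.88 ± 0.04, adjusted p = 1.58e-12 by edgeR) and to 233, 237 and 217 CPM (-1.08 ± 0.05, adjusted p = 2.66e-11 by edgeR). HAUS1 fell by 0.90 and 1.01 on the log2 scale (adjusted p = 1.97e-06 and 2.72e-06 by edgeR). BCL2 and NEDD4L were thus lower than WT with both inhibitors and in KDAC6H611A, while SMAD7 was higher with both inhibitors and lower in KDAC6H611A.

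**Figure D5:**
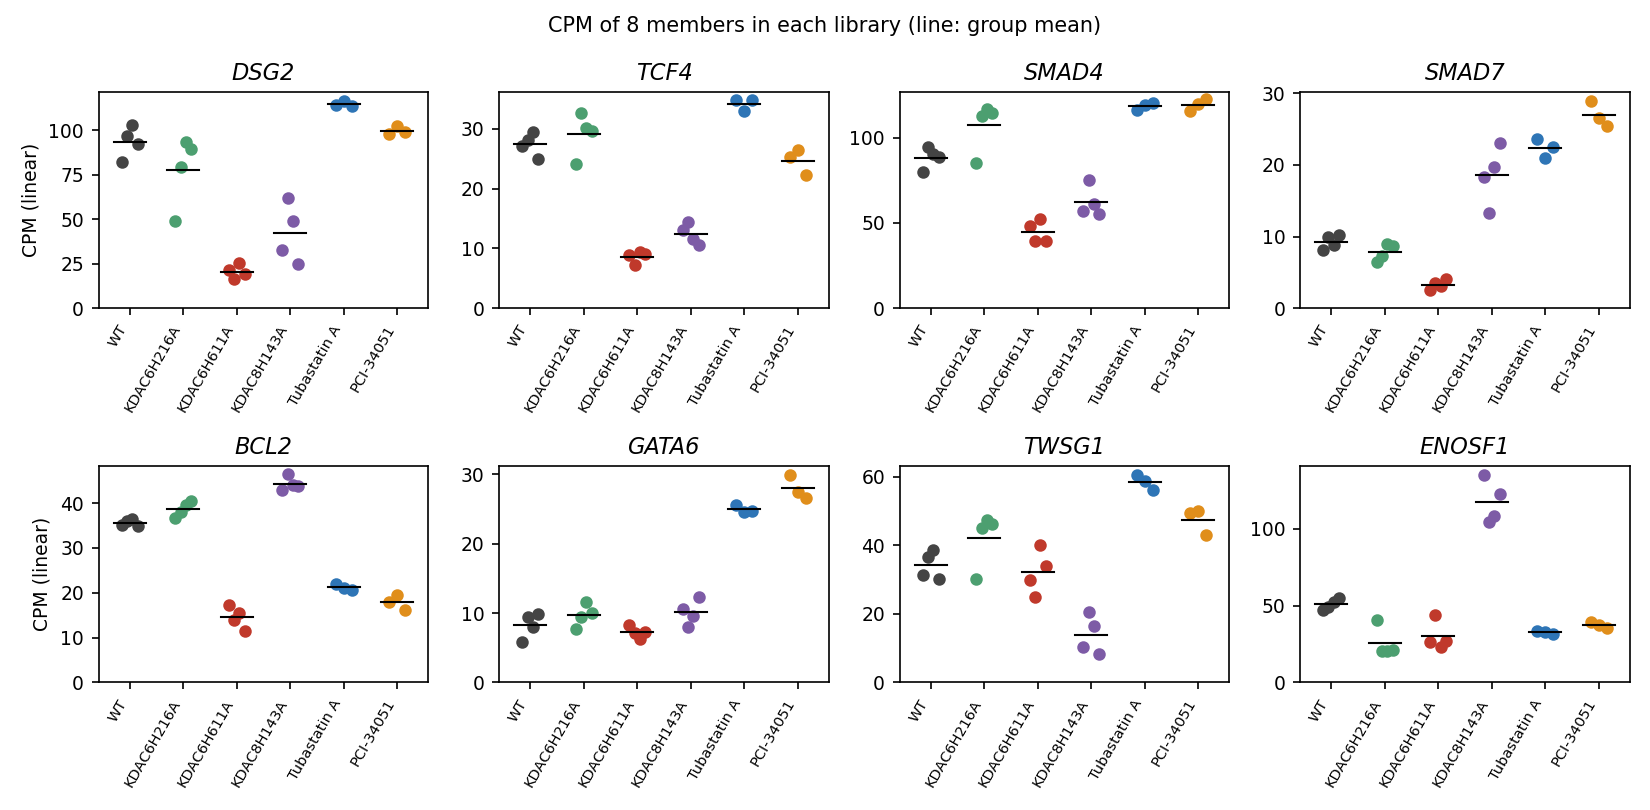
CPM (vertical axes, linear from 0) of 8 members in each library by group (horizontal axes), with a line at the group mean. DSG2, TCF4, SMAD4, SMAD7 and BCL2 sit under WT in all 4 KDAC6H611A libraries, TWSG1 and GATA6 overlap WT there, and SMAD7 and GATA6 lie above WT in all 6 inhibitor libraries.

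The SMAD genes among the members act with partners encoded elsewhere, and 37 genes of the TGF-beta and BMP pathway off chromosome 18 were counted in the same fits. In KDAC6H611A 10 of the 36 tested fell and 4 rose, against 6.24% lower and 6.08% higher over all genes, with a median of -0.16. Those counts were 4 and 2 with total-count scaling, 4 and 1 without WT replicate 3 and 6 and 2 without KDAC6H611A replicate 4. Calls over all genes also fell with total-count scaling and without WT replicate 3 (below). The main shares are therefore no background for these counts, and nothing is read from their drop. The largest fall was in the target THBS1 (-1.47 ± 0.16, SE), followed by the SMAD repressor SKIL (-1.34 ± 0.10) and the activin subunit INHBA (-1.33 ± 0.13). The ligands TGFB3 (1.06 ± 0.24) and TGFB2 (1.04 ± 0.15, SE) rose. Of the 10 targets 4 fell and none rose, and 1 fell with total-count scaling and 3 without KDAC6H611A replicate 4. In KDAC6H216A 2 fell and 1 rose of 35, against 0.834% called over all genes, and without its replicate 1, 8 fell and 4 rose of 36, against 13.8% and 12.2%. In KDAC8H143A 15 fell and 11 rose of 36, against 26.9% and 31.6%, and 10 and 7 after the GC and length correction, for which no share over all genes is given here. With Tubastatin A 3 fell and 30 rose of 36, against 28.6% and 29.3%, and with PCI-34051 2 fell and 28 rose, against 25.6% and 25.5%. A fit of all 6 groups together gave 1 lower and 23 higher of 37 for each inhibitor, and calls over all genes fell in that fit too (below). All 10 targets rose with either inhibitor, with medians of 1.77 and 1.78; ID1, a BMP target, rose by 2.597 and 2.52, past the threshold by edgeR with both.

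The comparison of Tubastatin A (1 µM) with PCI-34051 (5 µM), at different doses, uses neither WT nor KDAC6H611A libraries. Of the 59 members 10 were higher with Tubastatin A and 0 lower, against 3.45% higher and 2.20% lower over 18409 genes (edgeR; 27 had an unadjusted p under 0.05). TCF4 gave 34.8, 33.1 and 34.8 CPM with Tubastatin A and 25.3, 26.5 and 22.3 CPM with PCI-34051, a log2 difference of 0.45 ± 0.06 (SE, adjusted p = 0.000232 by edgeR). MYL12A differed by 0.34 ± 0.05 (adjusted p = 0.000668 by edgeR), with 188, 195 and 191 CPM against 147, 164 and 138 CPM. MYL12B differed by 0.34 ± 0.05 (adjusted p = 0.00019 by edgeR), with 191, 195 and 196 CPM against 154, 158 and 144 CPM. None of these 3 genes overlapped between the treatments, and each stayed called when any 1 of the 6 libraries was left out. The division of reads between MYL12A and MYL12B is uncertain here too. The other 7 (DSG2, EPG5, NAPG, NEDD4L, PMAIP1, SNRPD1 and TWSG1) differed by 0.19 to 0.28, and each lost the call in at least 2 of those 6 refits. Without Tubastatin A replicate 1, 2 or 3 the count of called members was 4, 3 and 4, and without PCI-34051 replicate 1 it was 4. A fit of all 6 groups together called none of the 10. Over the 59 members the difference between the inhibitors had a Pearson r of -0.38 and a Spearman rho of -0.27 with GC content. With the GC and length correction fewer members were called (below). TCF4, MYL12A and MYL12B each kept the call in 9 of 10 other settings, the fit of all 6 groups being the exception. The part of base composition by itself in these calls was not tested.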

How the data were processed

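RNA of 22 HT1080 cultures, given by the study as biological replicates, was depleted of ribosomal RNA and sequenced. The deposited values are expected counts per gene made by the authors; the submitters' processing notes name Trimmomatic 0.39, Bowtie2 2.4.5, RSEM 1.3.3, DESeq2 1.38.2 and build GRCh38, and strand use in the counting is not given in the sources used here. Here the expected counts were rounded and each pair of groups was fitted over all genes with edgeR 4.0.16 (R 4.3.3; TMM scaling, filterByExpr, quasi-likelihood test, Benjamini-Hochberg adjustment, threshold 0.01). SE is the log2 fold change divided by the root of F. CPM per library use 1 TMM scale over all 22 libraries, so CPM ratios can differ slightly from fitted folds. GC content and exon length came from GENCODE release 44. The members, the lists of partners, TGF-beta genes and markers, and the alternatives were chosen with earlier results of these data known, and the lists support nothing by themselves. Per-library values are given for members chosen for their known roles and for the extremes of each comparison; other chromosome 18 genes are the 3 lowest in KDAC6H611A at 1 CPM or more in WT, with DCC and L3MBTL4 added after their values were seen. Alternatives were DESeq2 1.42.0, scaling by total count, other filters and thresholds, 1 fit of all 6 groups, a GC and length correction (mgcv 1.9.3), a replicate block and each library left out. Their use on the TGF-beta list and on the segment medians was added after the values were seen. Counting intervals and floors cover counting error only. On simulated counts with 200 changed genes, 59.5% were recovered for KDAC6H216A against WT (14246 genes), 88.5% for Tubastatin A against WT (14712 genes) and 73.5% for Tubastatin A against PCI-34051 (18082 genes).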

Additional observations from a re-analysis of the deposited data

Results flagged for a closer look

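Among the 112 sets of 4 libraries examined (25 named members and 3 library medians in each group of 4), 6 held a library farther from the other 3 than Dixon's 95% limit on the gap relative to the range, and chance gives about 1 in 20. Replicate 1 of KDAC6H216A accounted for 4 of them: SMAD4 was at 85.14 CPM there and at 113 CPM or more in the other 3, TWSG1 at 30.05 CPM, HAUS1 at 13.27 CPM, and ENOSF1 at 40.82 CPM where the other 3 were at 21.1 CPM or less. This library also has the low mitochondrial ribosomal RNA share, whose part in these values was not tested. SMCHD1 was at 49.22 CPM in KDAC6H611A replicate 2, under the next library at 58.3 CPM. CABLES1 was at 17.15 CPM in KDAC8H143A replicate 4, above the next library at 12.6 CPM.

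The effect of the inhibitors against the same WT libraries differed between Tubastatin A and PCI-34051, by edgeR's test of the treatments against each other, for 7 of the named members. The log2 differences, all higher with Tubastatin A, were 0.454 for TCF4, 0.343 for MYL12A, 0.337 for MYL12B, 0.283 for TWSG1 and for PMAIP1, 0.203 for NEDD4L and 0.188 for DSG2. Over all genes 3.45% were called higher and 2.2% lower. With each of the 6 libraries left out in turn, TCF4, MYL12A and MYL12B kept the call in all 6 fits. TWSG1 kept it in 4, PMAIP1 in 3, DSG2 in 2 and NEDD4L in 1. None of the 7 was called in the fit of all 6 groups together. The doses differed, so compound and dose cannot be told apart.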

How the results depend on the processing

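Every alternative kept the member median in KDAC6H611A against WT below 0. All of them used the libraries that chose the members, so this is a description of the choice and no support for it. Of 186 settings other than left-out libraries, 141 kept a value within its limits and 45 moved it; of 134 left-out fits 126 kept it and 8 moved it. The cause was not tested unless the alternative's own construction shows it. Members called in KDAC6H216A against WT (0) became 1 at an adjusted p of 0.05, without a filter and in 1 fit of all groups, and 2 with DESeq2 and with total-count scaling. Members called in KDAC8H143A (42) became 26 with the GC and length correction. In 1 fit of all groups the counts were 14 with Tubastatin A and 13 with PCI-34051. For Tubastatin A against PCI-34051 (10) they were 17 at an adjusted p of 0.05, 0 in 1 fit of all groups and 5 with the correction.

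Member medians with total-count scaling were -0.2759 in KDAC8H143A, 0.4165 with Tubastatin A, 0.3267 with PCI-34051 and 0.02192 between the inhibitors. With the GC and length correction they were -0.05451, -0.06755, -0.1865 and 0.01996 in that order. Without a filter they were 0.1587 with Tubastatin A and 0.02577 with PCI-34051, and in 1 fit of all groups 0.179 and 0.04481. For KDAC6H611A against KDAC6H216A, KDAC8H143A, Tubastatin A and PCI-34051 the medians were -1.196, -0.6553, -1.267 and -1.253 with total-count scaling and -0.9731, -0.8097, -0.7523 and -0.6827 with the correction. In the main setting with each library left out in turn, the medians ran from -1.134 to -1.03 against KDAC6H216A and -0.4528 to -0.2667 against KDAC8H143A. Against Tubastatin A they ran from -1.061 to -0.9373 and against PCI-34051 from -0.9964 to -0.8611. Without a filter they were -1.115 against Tubastatin A and -1.002 against PCI-34051, and in 1 fit of all groups -1.16 against KDAC6H216A and -0.9802 against PCI-34051.

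With the replicate number as a block, 5 members were called between the inhibitors, and 3 with the block and the correction together. Block and correction gave member medians of -0.05432 in KDAC8H143A, -0.07737 with Tubastatin A, -0.1802 with PCI-34051 and 0.01995 between them. Against KDAC6H216A, KDAC8H143A, Tubastatin A and PCI-34051, KDAC6H611A then had -0.9681, -0.812, -0.7537 and -0.6826. The replicate numbers mark no shared batch in the labels, and in no comparison did every same-numbered pair correlate above 0.1: correlations of deviations ran from -0.08 to 0.13 for KDAC6H611A and WT, from 0.00 to 0.20 for KDAC6H216A and WT, from -0.23 to 0.37 for KDAC6H611A and KDAC6H216A and from -0.05 to 0.20 for KDAC6H611A and KDAC8H143A.

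Leaving out each library in turn gave 35 to 44 called members in KDAC6H611A, 0 to 15 in KDAC6H216A (15 without its replicate 1), 38 to 46 in KDAC8H143A, 31 to 37 with Tubastatin A, 30 to 35 with PCI-34051 and 3 to 13 between the inhibitors. Member medians ran from 0.00675 to 0.08409 with Tubastatin A, 0.028 to 0.07137 between the inhibitors and -0.9964 to -0.8611 for KDAC6H611A against PCI-34051. The segment median in KDAC6H611A ran from -0.37 to -0.22 and the outside median from -1.12 to -1.002 over 18 settings. All of these used libraries that drew the segment, so the ranges describe the choice.

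Calls over all genes also moved. For KDAC6H611A (1814) they were 3383 at an adjusted p of 0.05, 913 with total-count scaling, 1125 without WT replicate 2, 1122 without WT replicate 3 and 2908 without KDAC6H611A replicate 2. For KDAC6H216A (121) they ran from 28 to 3813 over left-out libraries, 3813 without its replicate 1, and were 351 at an adjusted p of 0.05, 367 with DESeq2, 443 with total-count scaling, 215 in 1 fit of all groups, 66 with the block and 61 with block and correction. One fit of all groups gave 4607 with Tubastatin A (8821) and 4341 with PCI-34051 (7835). Between the inhibitors (1041) they were 2463 at an adjusted p of 0.05, 1884 without a filter, 7 in 1 fit of all groups and 407 without Tubastatin A replicate 3. The shallowest library was WT replicate 1, at 5248953 counts.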
